A study of Homo sapiens with 10 samples.

Results

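The 9 genes examined here encode secreted inflammatory signals and their feedback inhibitors. They are the interleukins IL1A, IL1B and IL6, the CXC chemokines CXCL8, CXCL1, CXCL2 and CXCL3, and the NF-kB inhibitors NFKBIA and TNFAIP3. They were chosen as a list of gene symbols, 9 of the 58395 genes counted in each library, and all 9 passed the filter on low counts that left 16905 genes for the tests. The 9 genes were chosen by their counts and fold changes in these libraries, so their values are given as a description, with standard errors and without p-values. Cells of HeyA8, an established ovarian carcinoma line of human origin, were transfected with 10 nM of an siRNA duplex and their total RNA was sequenced. There were 10 libraries in 5 groups of 2. The groups were the non-targeting control siNT1 (labelled siNT1 S2'OM) at 24 h and at 48 h, siGGGGGC (titled siMxy) at 24 h and at 48 h, and siGGCAGU (titled si34a) at 48 h only. No untreated or mock-transfected library was analysed here, so every effect is relative to siNT1 of the same time. Both libraries of a group came from wells transfected in duplicate, and the errors therefore measure the spread between wells and libraries of a single cell line.

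siGGGGGC and siGGCAGU carry the names of their 6mer seeds, positions 2 to 7 of the guide strand. An siRNA can pair through this seed with 3′ UTRs of many messenger RNAs, as a microRNA does. To show what the seeds correspond to, a human microRNA with each of them follows from RefSeq (GRCh38.p14), 5′ to 3′, with positions 2 to 7 in capitals. The first lies at chr1:9151735-9151756 on the minus strand and has the seed of siGGCAGU, and the second lies at chr11:64368651-64368671 on the plus strand and has the seed of siGGGGGC.
hsa-miR-34a-5p: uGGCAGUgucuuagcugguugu
hsa-miR-1237-5p: cGGGGGCggggccgaagcgcg

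IL1A and IL1B both bind the receptor IL1R1, which together with the accessory chain IL1RAP recruits MYD88 and IRAK kinases and activates the IKK complex. IKK marks IkB proteins such as the NFKBIA product for degradation and frees NF-kB dimers, whose target genes include IL6, the CXC chemokines and IL1 itself. NFKBIA and TNFAIP3 are targets too, and their products shut the pathway down again. CXCL8, CXCL1, CXCL2 and CXCL3 attract neutrophils through the receptors CXCR1 and CXCR2. Many of these messenger RNAs are short-lived because of AU-rich elements in their 3′ UTRs. Carcinoma cells often make IL1A, IL6 and CXCL8 without stimulation.

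Total counts ranged from 19781445 to 42428986 per library. The small RNA genes RN7SL2 and SNORD3A took 19.8% to 32.0% of a library, and a scaling without them is among the alternatives tried. Values per library are normalised counts, which are counts divided by the effective library size after TMM scaling and multiplied by the mean effective library size. A gene was called when edgeR's quasi-likelihood test gave an adjusted p under 0.05 and the log2 fold change exceeded 1 in size. Among markers of epithelial and ovarian carcinoma cells, 7 of 9 had a median above 10 counts, among them KRT7, KRT8, KRT18 and PAX8, while CDH1 (1 to 26 counts) and MUC16 (0 to 26 counts) were nearly absent. The summed level of this list was 257 to 269 CPM with siGGGGGC at 48 h and 687 to 914 CPM in the other libraries, and that of 4 mesenchymal markers was 1180 to 1200 CPM with siGGGGGC at 48 h and 1510 to 2700 CPM elsewhere. Of 9 leukocyte markers only NCAM1 had a median above 10 counts (82 to 493), while the defining marker PTPRC had 0 to 4 counts. The summed leukocyte list was at 14.6 to 17.3 CPM with siGGCAGU and 4.82 to 9.27 CPM elsewhere. This sum is mostly NCAM1, since no other marker of the list exceeded 12 counts in a library. Of 4 endothelial markers, 2 had such a median, with sums of 0.817 to 2.87 CPM. The part of these marker differences in the results that follow was not tested, and in RNA of a whole culture fewer cells of a kind and less RNA per cell cannot be told apart.

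To determine how the IL1 ligands responded, their counts were followed through all libraries. IL1A (ENSG00000115008, hg38 chr2:112773925-112784493, minus strand), a ligand that stays active in its precursor form, had 1058 and 1223 normalised counts with siNT1 and 1293 and 1338 with siGGGGGC at 24 h. The 48 h values were 697 and 829 with siNT1, 4573 and 4217 with siGGGGGC, and 13064 and 11180 with siGGCAGU. The groups did not overlap at 48 h, and IL1A with siGGCAGU lay above every siGGGGGC library. Its log2 fold change was 0.21 (SE 0.114) with siGGGGGC at 24 h, 2.52 (SE 0.114) with siGGGGGC at 48 h and 3.99 (SE 0.12) with siGGCAGU.

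IL1B (ENSG00000125538, chr2:112829751-112836816, minus strand), the ligand that the protease CASP1 cuts into its active form, had a lower level and the largest difference of the 9 genes. It had 180 and 173 normalised counts with siNT1 and 144 and 173 with siGGGGGC at 24 h. With siNT1 at 48 h the counts were 143 and 150, beside 307 and 296 with siGGGGGC and 4762 and 4702 with siGGCAGU. Libraries overlapped at 24 h, and at 48 h the 3 groups were apart, siGGCAGU by far the highest. The log2 fold changes were -0.15 (SE 0.126) at 24 h, 1.04 (SE 0.106) with siGGGGGC at 48 h and 5.01 (SE 0.104) with siGGCAGU. The siGGGGGC value at 48 h lay close to the threshold and was no longer called without siNT1 replicate 1 of 48 h.

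IL6 (ENSG00000136244, chr7:22725884-22732002, plus strand), the cytokine that signals through IL6ST, was the least counted of the 9 genes. Raw counts were 7 to 27 per library in siNT1 and in siGGGGGC at 24 h, so differences among those groups rest on few reads. It had 11.9 and 18.3 normalised counts with siNT1 and 11.5 and 10.0 with siGGGGGC at 24 h. Its counts at 48 h were 14.7 and 15.5 with siNT1, 35.8 and 34.2 with siGGGGGC, and 322 and 298 with siGGCAGU. Both siRNAs were above siNT1 at 48 h. The log2 fold change was -0.47 (SE 0.397) at 24 h, 1.20 (SE 0.254) with siGGGGGC at 48 h and 4.34 (SE 0.192) with siGGCAGU. Exons of the antisense gene IL6-AS1 cover 9.91% of the exonic bases of IL6 and those of STEAP1B 1.06%. The strand setting of the counting is not given in the sources used here, so reads there cannot be told apart.

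CXCL8 (ENSG00000169429, chr4:73740519-73743716, plus strand), the interleukin-8 gene, was the most counted of the 9 genes. It had 2010 and 2088 normalised counts with siNT1 and 1301 and 1340 with siGGGGGC at 24 h. At the later time it had 1723 and 2179 with siNT1, 27674 and 25529 with siGGGGGC, and 51615 and 38401 with siGGCAGU. Thus CXCL8 lay below its control at 24 h and far above it at 48 h with the same duplex. The log2 fold changes were -0.63 (SE 0.139), 3.77 (SE 0.147) and, with siGGCAGU, 4.53 (SE 0.152). The siGGCAGU libraries differed from each other more than those of other groups did, and both were still above both siGGGGGC libraries.

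Of the 3 GRO chemokines, near relatives of each other, CXCL2 and CXCL3 changed sides of siNT1 with siGGGGGC as CXCL8 did, and CXCL1 did not. CXCL1 (ENSG00000163739, chr4:73869393-73871308, plus strand) had 998 and 983 normalised counts with siNT1 and 364 and 313 with siGGGGGC at 24 h. At 48 h it had 1104 and 1055 with siNT1, 446 and 427 with siGGGGGC, and 2661 and 2655 with siGGCAGU. CXCL1 was the only one of the 9 genes that lay below siNT1 with siGGGGGC at both times, and it was above siNT1 with siGGCAGU. Its log2 fold changes were -1.55 (SE 0.0992), -1.31 (SE 0.0926) and, with siGGCAGU, 1.30 (SE 0.0867).

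CXCL2 (ENSG00000081041, chr4:74097040-74099196, minus strand) had 418 and 412 normalised counts with siNT1 and 205 and 199 with siGGGGGC at 24 h. By 48 h it had 337 and 361 with siNT1, 538 and 538 with siGGGGGC, and 1864 and 1716 with siGGCAGU. With siGGGGGC it went from below to above its control, with log2 fold changes of -1.04 (SE 0.11) and 0.62 (SE 0.0944), and with siGGCAGU it was at 2.36 (SE 0.0928).

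CXCL3 (ENSG00000163734, chr4:74036589-74038807, minus strand) was counted least of the chemokines, with 23 raw counts in its lowest library. It had 88.3 and 111 normalised counts with siNT1 and 57.7 and 32.9 with siGGGGGC at 24 h. The libraries of 48 h had 118 and 131 with siNT1, 178 and 163 with siGGGGGC, and 564 and 668 with siGGCAGU. The order of the groups was that of CXCL2 apart from the place of siNT1 at both times. The log2 fold changes were -1.13 (SE 0.242), 0.44 (SE 0.169) and 2.30 (SE 0.155). At 24 h the value became -0.78 without siGGGGGC replicate 2 and -0.95 without siNT1 replicate 2, and was then no longer called. Some reads may not be assignable between these genes, since 10.1% of the 50-base windows of CXCL2, 5.33% of those of CXCL1 and 5.26% of those of CXCL3 occur in another gene.

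Of the inhibitors, NFKBIA (ENSG00000100906, chr14:35401079-35404749, minus strand), the gene of IkB-alpha, had 976 and 1081 normalised counts with siNT1 and 1288 and 1225 with siGGGGGC at 24 h. Later, at 48 h, it had 809 and 970 with siNT1, 3084 and 2979 with siGGGGGC, and 1861 and 1853 with siGGCAGU. It was the only one of the 9 genes that was higher with siGGGGGC than with siGGCAGU. Its log2 fold changes were 0.29 (SE 0.1), 1.77 (SE 0.0978) and, with siGGCAGU, 1.06 (SE 0.0971), which was 0.93 and no longer called without siNT1 replicate 1 of 48 h.

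TNFAIP3 (ENSG00000118503, chr6:137867214-137883314, plus strand), whose product A20 removes ubiquitin chains from signalling complexes, had 52.5 and 38.0 normalised counts with siNT1 and 54.9 and 52.9 with siGGGGGC at 24 h. At 48 h it had 48.8 and 41.8 with siNT1, 116 and 119 with siGGGGGC, and 141 and 162 with siGGCAGU. Both siRNAs were above siNT1 at 48 h and closer to each other than for any ligand. The log2 fold changes were 0.24 (SE 0.239), 1.38 (SE 0.185) and 1.76 (SE 0.179). Exons of WAKMAR2 on the other strand cover 1.47% of its exonic bases.

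**Figure D1:**
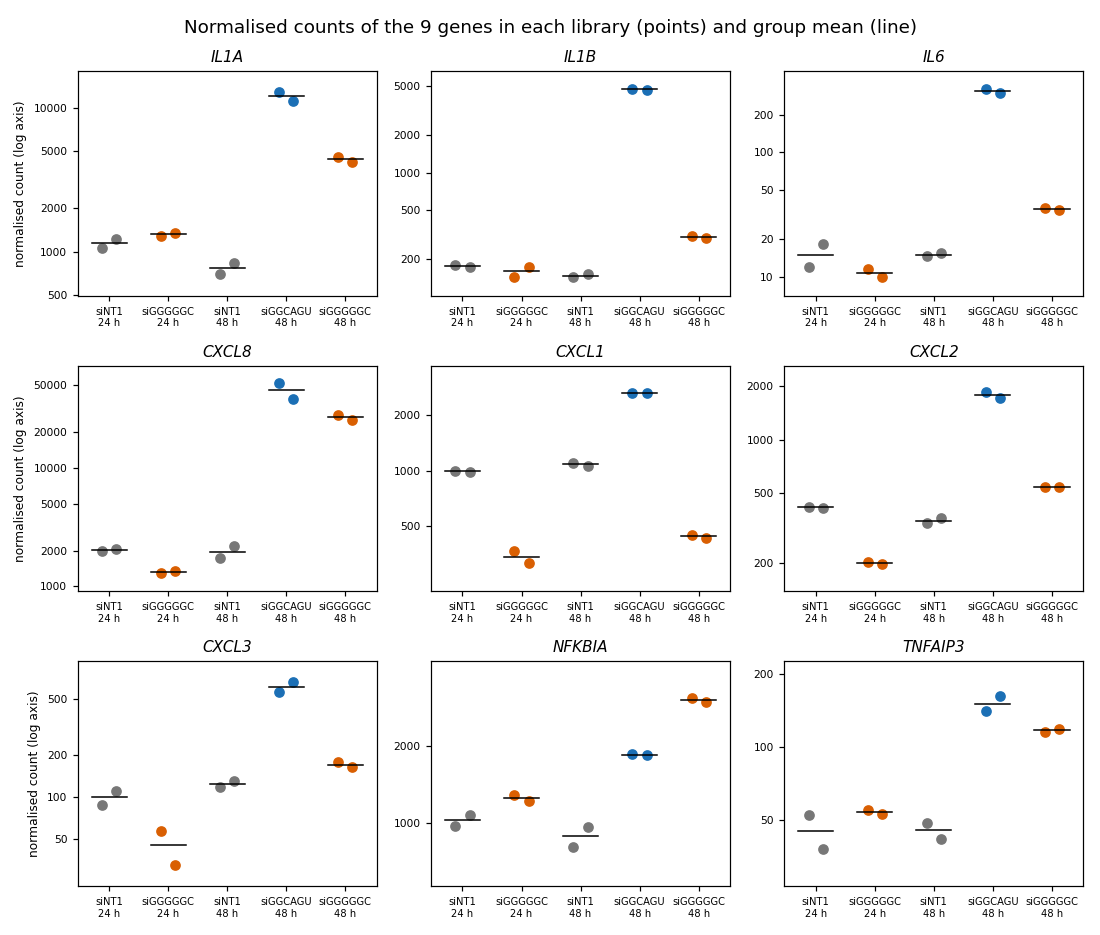
Normalised counts (vertical axis, log scale, a scale of its own in each panel) of the 9 genes in the 2 libraries of each group (points), with the group mean as a line, siNT1 in grey, siGGGGGC in orange and siGGCAGU in blue. The siGGCAGU libraries are the highest for every gene but NFKBIA (1861 and 1853 against 3084 and 2979 with siGGGGGC at 48 h), and CXCL1 with siGGGGGC lies below siNT1 at both times.

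Set side by side, the 9 genes gave a different picture in each comparison. With siGGGGGC at 24 h, 0 of 9 were called higher and 3 lower (CXCL1, CXCL2 and CXCL3), where 3.72% of all genes tested were called in either direction, 1.55% higher and 2.17% lower. With siGGGGGC at 48 h, 6 were called higher and 1, CXCL1, lower, where 21.5% of all genes were called, 10.5% higher and 11.0% lower. With siGGCAGU at 48 h, 9 were called higher, and 0 lower, where 20.3% of all genes were called, 10.7% higher and 9.62% lower. The rule used these contrasts, so the counts describe the choice of genes. The median log2 fold change of the 9 genes was -0.47, 1.20 and 2.36 in the 3 comparisons, beside 0, -0.01 and 0.02 over all genes tested. The median at 24 h was -0.17 without siNT1 replicate 2 and -0.66 without replicate 1, and 2 instead of 3 genes were called without siNT1 replicate 2 or siGGGGGC replicate 2. The libraries of the groups did not overlap for 8 of 9 genes at 24 h (3 higher, 5 lower), where 62.7% of all genes did not (32.0% higher, 30.7% lower). At 48 h with siGGGGGC they were apart for 9 genes (8 higher, 1 lower), where 77.4% of all genes were (38.1% higher, 39.3% lower). With siGGCAGU they were apart for 9 genes, all higher, where 72.6% of all genes were (37.7% higher, 34.9% lower). Both comparisons at 48 h share the siNT1 libraries.

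Compared directly at 48 h, both siGGGGGC libraries were below both siGGCAGU libraries for 8 of the 9 genes and above them for 1, where 75.7% of all genes did not overlap (37.7% higher, 38.0% lower). Called lower were 6 genes and called higher 0, where 23.0% of all genes were called, 12.8% lower and 10.1% higher. The largest differences were those of IL1B (log2 fold change -3.97), IL6 (-3.14) and CXCL1 (-2.61). CXCL8 at -0.76, TNFAIP3 at -0.38 and NFKBIA at 0.71 were within the threshold of 1. In siNT1 cells 0 of 9 genes were called between 24 and 48 h, where 1.53% of all genes were (1.06% higher, 0.461% lower), with log2 fold changes from -0.58 for IL1A to 0.33 for CXCL3. The siNT1 libraries of the 2 times did not overlap for 6 genes (2 higher and 4 lower at 48 h), where 61.6% of all genes did not (30.8% higher, 30.8% lower).

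**Figure D2:**
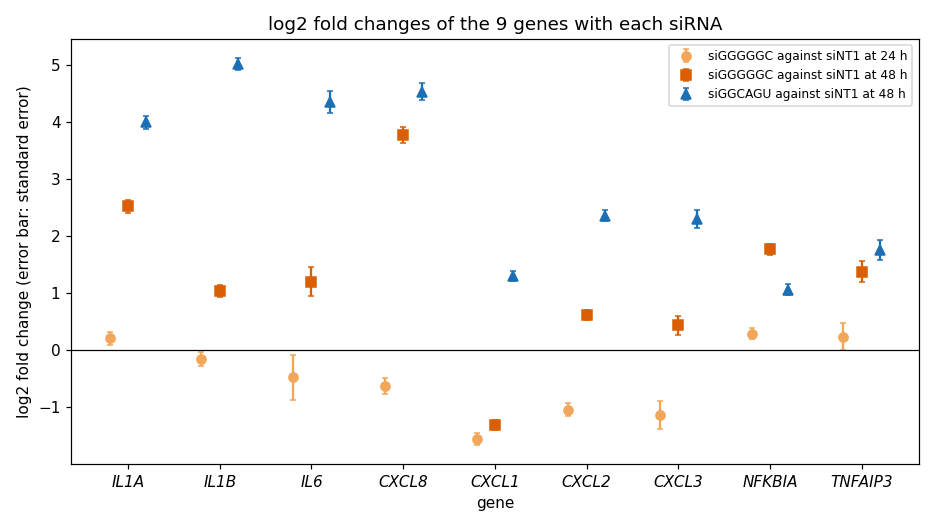
Log2 fold changes against siNT1 of the same time (vertical axis) of the 9 genes (horizontal axis), with siGGGGGC at 24 h (light circles), siGGGGGC at 48 h (squares) and siGGCAGU at 48 h (triangles), and standard errors as bars. The values with siGGGGGC run from -1.55 to 0.29 at 24 h and from -1.31 to 3.77 at 48 h, while all values with siGGCAGU are between 1.06 and 5.01.

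The order of the groups was examined for each gene. siGGCAGU at 48 h ranked first for 8 of 9 genes, and siGGGGGC at 48 h ranked second for 7 of these 8. The neighbours in rank overlapped for IL1B among both siNT1 groups and siGGGGGC at 24 h, and for IL6, CXCL8 and TNFAIP3 between the siNT1 groups. Those neighbours did not differ beyond the spread of their libraries. All other neighbouring groups were apart, although 2 libraries a group are a small sample. The groups were ranked by their means first, and the share of all genes with such neighbours apart was not computed.

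Levels of different genes were compared as CPM per kb of exon, with all annotated exons of a gene joined. This length was 2588 bases for CXCL8 and 1362 for CXCL1, while their main annotated transcripts have 1642 and 1174 bases. Levels and shares set between genes depend on that choice of length. The sum over the 9 genes was 92.8 to 110 CPM per kb in the siNT1 libraries, 76.9 to 77.8 with siGGGGGC at 24 h, 528 to 569 with siGGGGGC at 48 h and 1000 to 1240 with siGGCAGU. Its make-up changed as well. CXCL8 was 27.6% to 31.3% of the summed level with siNT1, 24.9% and 25.9% with siGGGGGC at 24 h, 62.0% and 56.9% with siGGCAGU, and 72.3% and 71.8% with siGGGGGC at 48 h. CXCL1 was 25.2% to 33.6% of it with siNT1, 6.07% and 7.48% with siGGCAGU, and 2.21% and 2.28% with siGGGGGC at 48 h. On this scale CXCL1 and CXCL8 were close to each other in siNT1 cells at 48 h (30.5 ± 0.98 and 29.0 ± 4.8 CPM per kb, SD, n = 2). They stood at 12.3 ± 0.387 and 396 ± 22.6 CPM per kb with siGGGGGC at 48 h (SD, n = 2). IL1B was 1.85% to 2.19% of the sum with siNT1, 0.691% and 0.717% with siGGGGGC at 48 h and 4.92% and 6.00% with siGGCAGU.

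The change of the siGGGGGC effect from 24 to 48 h was taken from the same fit. The effect at 48 h minus that at 24 h was above 0 on the log2 scale for all 9 genes, from 0.24 for CXCL1 to 4.40 for CXCL8. The difference was called for 8 of 9, all higher, where 11.2% of all genes tested were called (4.83% higher, 6.36% lower). The genes were chosen on these groups, so this count too is a description and nothing is read from it. The value of TNFAIP3 (1.14) was 0.87 without siNT1 replicate 1 of 24 h, and that of IL6 (1.67) was 1.33 without siNT1 replicate 2 of 24 h and 1.56 without siGGGGGC replicate 2 of 24 h. Each was then no longer called.

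The 4 chemokine genes lie in a stretch of chromosome 4 that also holds other CXC genes, and their neighbours were looked at in order. From CXCL8, CXCL6 lies 96.1 kb, PF4V1 112.8 kb and CXCL1 128.9 kb away. PF4, PPBP and CXCL5 follow at 240.3, 245.9 and 255.1 kb, CXCL3 at 296.1 kb and CXCL2 at 356.5 kb. The 5 genes in between that are not on the list had at most 8 counts in any library, and PF4 and PF4V1 had 0. CXCL5 and CXCL6, which encode further ligands of CXCR2, had at most 4 and 2 counts in a library, too few for a test, in a locus where CXCL8 reached 51627 raw counts. CXCL2 and CXCL3, the genes farthest from CXCL8, had log2 fold changes between those of CXCL8 and CXCL1 with both siRNAs at 48 h.

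**Figure D3:**
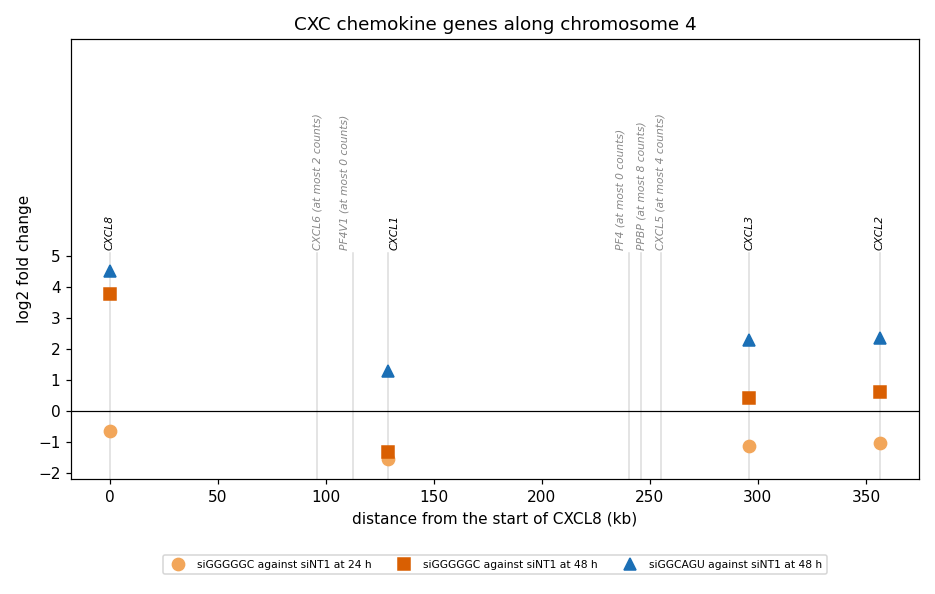
Log2 fold changes (vertical axis) of the CXC genes by distance from the start of CXCL8 in kb (horizontal axis), with siGGGGGC at 24 h (light circles), siGGGGGC at 48 h (squares) and siGGCAGU at 48 h (triangles). Grey names mark genes with too few counts for a test and their highest count, at most 8, and the square of CXCL1 is the only one below 0.

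To see what the start sites share, 300-base promoters from RefSeq (250 bases before to 50 after the start, GRCh38.p14) were searched on both strands for GGNNNTTCC, the form of an NF-kB site. All 9 genes had a promoter in the table, IL1A with 2 starts. The motif was present in 7 of the 10 promoters and in 20.1% of 35116 promoters of that length. It was not found in this window of IL1A or IL1B. To let the sites of these 7 genes be compared, 1 match each follows with 10 bases on either side, in transcript direction, the match in capitals. Their first bases lie 91 bases before the start in CXCL8, 78 in CXCL1 and CXCL3, 77 in CXCL2, 72 in IL6, 81 in NFKBIA and 67 in TNFAIP3.
CXCL8: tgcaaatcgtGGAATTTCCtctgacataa
CXCL1: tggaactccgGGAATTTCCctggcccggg
CXCL2: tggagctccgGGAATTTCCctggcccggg
CXCL3: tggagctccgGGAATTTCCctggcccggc
IL6: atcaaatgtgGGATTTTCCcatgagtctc
NFKBIA: tgactggcttGGAAATTCCccgagcctga
TNFAIP3: acgtgactttGGAAAGTCCcgtggaaatc

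The match lies at chr4:73740478-73740486 in CXCL8, at chr4:73869315-73869323 in CXCL1, at chr4:74099264-74099272 in CXCL2 and at chr4:74038759-74038767 in CXCL3. In IL6 it lies at chr7:22727128-22727136, in NFKBIA at chr14:35404822-35404830 and in TNFAIP3, as the reverse complement, at chr6:137867192-137867200. The letters of the match are the same in CXCL8, CXCL1, CXCL2 and CXCL3. A role of the motif in the levels of these genes was not tested. CXCL1, CXCL2 and CXCL3 each hold a further match 53 bases before the start, NFKBIA holds one 242 bases and TNFAIP3 one 55 bases before it, and the bases around the first one are almost the same in the 3 chemokine genes. A motif of the AP-1 form, TGANTCA, was found in 3 of the 10 promoters and in 7.71% of all. They were that of CXCL8 and both of IL1A, whose windows overlap and hold the same sites. Such matches describe the letters only.

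The longest annotated 3′ UTRs were searched for the reverse complements of the seeds and for AU-rich words, on the transcript strand. GCCCCC, the match of siGGGGGC, was found in 2 of the 9 genes, against 30.2% of 19225 genes with a 3′ UTR, once each in NFKBIA (chr14:35402238-35402243) and TNFAIP3 (chr6:137883011-137883016). Both genes were higher with siGGGGGC at 48 h, when 8 of the 9 genes lay above siNT1. Targeting through this word was not tested, and coding sequences were not searched. The sites are shown with 12 bases on either side and the match in capitals.
NFKBIA: aagaatgtacctGCCCCCcctcttttttta
TNFAIP3: tttccccttagaGCCCCCtaagtttttccc

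CXCL1, the gene that was lower with siGGGGGC at both times, holds no GCCCCC in its 3′ UTR of 772 bases, nor do CXCL2 and CXCL3. ACTGCC, the match of siGGCAGU, was found once each in 4 of the 9 genes, IL1B, CXCL1, CXCL2 and NFKBIA, against 32.7% of all genes. The sites of CXCL1 (chr4:73871136-73871141) and CXCL2 (chr4:74097146-74097151) lie in nearly the same sequence. All 4 genes were higher with siGGCAGU, as were all 9, with or without the word. A role of either seed match in these levels was not tested.
IL1B: caccaatgcccaACTGCCtgccttagggta
CXCL1: cttgtaaggcatACTGCCttgtttaatggt
CXCL2: cttgtaaggcatACTGCCttgtttaatgtt
NFKBIA: tccacactgcacACTGCCtggcccaaaacg

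The 3′ UTRs of the 9 genes are rich in AU elements. The pentamer ATTTA was found in 9 of 9, 56 copies in all, and in 69.6% of all genes. The longer word TTATTTATT, which contains it, was found in 6 of 9 and in 8.82% of all genes. CXCL2 held 5 overlapping or separate copies, CXCL1 3, IL1B 2, and CXCL8, CXCL3 and TNFAIP3 1 each, while IL1A, IL6 and NFKBIA held none. Per kb of 3′ UTR there were 7.77 pentamers in the median gene of the 9, from 2.41 in NFKBIA and 2.51 in TNFAIP3 to 14.0 in IL6 and CXCL2, and 1.63 in the median of all genes. The 2 inhibitor genes thus had the lowest density of the 9.

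To place the 9 genes in their pathway, 10 lists with 138 other genes of IL1, IL6, chemokine and NF-kB signalling were examined. A symbol was matched for 137, and 89 passed the filter on low counts. With siGGGGGC at 24 h, 8 were called higher and 1 lower (10.1% of those tested). At 48 h, 26 rose and 5 fell with siGGGGGC (34.8%), and 24 rose and 3 fell with siGGCAGU (30.3%). These shares stand beside 3.72%, 21.5% and 20.3% of all genes tested. The median log2 fold changes over the 89 genes were 0.09, 0.36 and 0.28. The lists were written with results of these libraries known, so the counts are descriptive. The adjusted p-values given with them come from edgeR (quasi-likelihood test, Benjamini-Hochberg over all 16905 genes).

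Of 17 further IL1 family ligands, receptors and processing genes, 6 were tested. The receptor IL1R1 was scarce, with 13.0 ± 5.18 normalised counts with siNT1 at 48 h, 16 ± 3.7 with siGGGGGC and 22.9 ± 0.867 with siGGCAGU (SD, n = 2), and was not called (log2 fold change with siGGCAGU 0.77, adjusted p = 0.0752). Without siNT1 replicate 2 of 48 h this value was 1.28 and called. The accessory chain IL1RAP rose with both, by 1.13 with siGGGGGC (adjusted p = 3.69e-07) and 1.43 with siGGCAGU (adjusted p = 2.56e-08). The antagonist gene IL1RN had 0 or 1 count in every library. CASP1, the protease that matures IL1B and IL18, rose with siGGCAGU, from 58.0 ± 3.43 to 396 ± 15.7 normalised counts (log2 fold change 2.77, adjusted p = 7.68e-10). With siGGGGGC at 48 h it had 48.8 ± 4.21 (log2 fold change -0.24, adjusted p = 0.293), and the difference between the siRNAs was -3.01 (adjusted p = 8.32e-10). IL18, a further cytokine that CASP1 cuts, went in opposite directions, falling by 1.84 with siGGGGGC (adjusted p = 2.12e-08) and rising by 1.27 with siGGCAGU (adjusted p = 2.8e-07). The difference between the siRNAs was -3.11 (adjusted p = 9.16e-11).

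Among 12 tested IL1 signal transducers, 2 rose and 1 fell with siGGGGGC at 48 h, and 3 rose with siGGCAGU. That was 25% in each comparison, beside the 21.5% and 20.3% of all genes called either way. Called higher were 10.5% of all genes with siGGGGGC at 48 h and 10.7% with siGGCAGU. The kinase gene IRAK1 fell from 4885 ± 527 to 1858 ± 227 normalised counts with siGGGGGC at 48 h (log2 fold change -1.39, adjusted p = 2.7e-08). Its value with siGGCAGU was -0.61 (adjusted p = 0.000105), short of the fold threshold. Chosen after their values were seen, IRAK2, a kinase of the same complex, rose with both (2.01 and 1.12, adjusted p = 1.11e-09 and 5.46e-07), as did the ubiquitin ligase gene PELI2 (3.01 and 1.27, adjusted p = 1.77e-05 and 0.0456). The adaptor gene MYD88, also chosen after its values were seen, rose with siGGGGGC at 24 h (1.30, adjusted p = 0.00286). It rose with siGGCAGU too (1.07, adjusted p = 0.000387), close to the threshold. With siGGGGGC at 48 h it was not called, with 73.2 ± 15 normalised counts beside 67.4 ± 20.8 with siNT1 (SD, n = 2).

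In the IL6 receptor pathway, 10 genes were tested. IL6ST, the shared signalling chain, rose from 4731 ± 160 normalised counts with siNT1 to 16509 ± 1010 with siGGGGGC and 14113 ± 2330 with siGGCAGU at 48 h (log2 fold change 1.80 and 1.58, adjusted p = 4.69e-09 and 1.43e-08). The IL6 receptor gene IL6R moved apart. It rose to 1004 ± 8.12 with siGGGGGC from 277 ± 12.1 with siNT1, and fell to 115 ± 7.24 with siGGCAGU (SD, n = 2). The log2 fold changes were 1.86 (adjusted p = 8.62e-10) and -1.27 (adjusted p = 2.01e-07), and the siRNAs differed by 3.13 (adjusted p = 1.71e-11). PIAS3, an inhibitor of STAT3, fell with siGGGGGC at 48 h (-1.04, adjusted p = 6.41e-05), a call that was lost without replicate 1 of siNT1 (-0.93) or of siGGGGGC (-0.98).

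Most other chemokine genes were hardly counted, and 2 of 20 were tested. CCL20, a chemokine for cells with CCR6, rose from 14.4 ± 0.674 to 811 ± 58.6 normalised counts with siGGCAGU (SD, n = 2). Its log2 fold change of 5.79 (SE 0.202, adjusted p = 1.03e-11) was above those of the 9 genes. With siGGGGGC at 48 h it had 49.3 ± 15.6 (1.75, adjusted p = 5.94e-05), and the siRNAs differed by -4.04 (adjusted p = 1.23e-10). CXCL16, the other one tested, had few counts, 4.14 ± 1.81 normalised counts with siNT1 at 48 h (SD, n = 2). It had 12.4 ± 0.0926 with siGGGGGC (log2 fold change 1.61, called) and 5.87 ± 0.942 with siGGCAGU (0.51, not called). CXCL10, a gene that interferon and NF-kB turn on, had 0 counts in every library, and CCL2 had 0 or 1. Of the chemokine receptors 1 of 10 passed the filter, CXCR4, which rose with siGGGGGC at 48 h (1.84, adjusted p = 0.000679, named after its value was seen), and CXCR1 and CXCR2, the receptors of the chemokines described above, had 0 or 1 count.

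Of 5 NF-kB subunits, 1 rose with siGGGGGC at 24 h, 2 at 48 h and 0 with siGGCAGU, while of 12 genes of the IKK complex and IkB proteins 2, 4 and 3 rose. These were 20%, 40% and 0% of the subunits and 16.7%, 33.3% and 25% of the IKK and IkB genes. Of all genes tested, 1.55%, 10.5% and 10.7% were called higher, and 3.72%, 21.5% and 20.3% either way. RELA and NFKB1, the classical dimer, were not called in any comparison with siNT1. RELA had 456 ± 43.9 normalised counts with siNT1, 479 ± 38.7 with siGGGGGC and 547 ± 10.8 with siGGCAGU at 48 h, and NFKB1 796 ± 52.2, 833 ± 35.1 and 603 ± 0.235 (SD, n = 2). NFKB2, a subunit of the alternative pathway and itself a target, rose with siGGGGGC at 48 h by 1.68 (adjusted p = 5.31e-08), to 627 ± 1.19 from 196 ± 11.6 normalised counts. At 24 h its value was 1.00 (adjusted p = 0.000891), at the threshold, and 0.75 without siGGGGGC replicate 1 and 0.90 without siNT1 replicate 1. With siGGCAGU it was 0.92 (adjusted p = 3.29e-05). RELB, its partner, chosen after its values were seen, rose with siGGGGGC at 48 h by 1.49 (adjusted p = 2.4e-07). MAP3K14, the kinase that starts the alternative pathway, rose at 24 h by 1.02 (adjusted p = 0.000427), but its value was 0.88 without siNT1 replicate 2 and 0.82 without siGGGGGC replicate 1. NFKBIE, a further IkB gene, rose with siGGGGGC at both times, by 1.31 (adjusted p = 1.11e-05) and 1.48 (adjusted p = 9e-08), and had 0.42 with siGGCAGU (adjusted p = 0.0107).

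The list of other NF-kB targets had the most called genes and was also the longest, with 21 genes tested. Called either way were 23.8% of them with siGGGGGC at 24 h and 52.4% with each siRNA at 48 h. Of all genes tested, 3.72% were called with siGGGGGC at 24 h, 21.5% with it at 48 h and 20.3% with siGGCAGU. At 24 h with siGGGGGC, 4 of 21 rose and 1, MMP1, fell (-1.43, adjusted p = 0.00398, named after its value was seen), while CXCL1, CXCL2 and CXCL3 were lower in the same libraries. The 24 h rises were BIRC3, an inhibitor of cell death (1.38, adjusted p = 6.03e-07), IER3, an early stress gene (1.22, adjusted p = 8.23e-05), and from few counts SAA1 (2.81, adjusted p = 0.000896) and ICAM1 (2.03, adjusted p = 0.00283). At 48 h, 9 rose and 2 fell with siGGGGGC, and 10 rose and 1 fell with siGGCAGU. The falls with siGGGGGC were MMP1 (-1.72, adjusted p = 0.000141) and the lymphotoxin gene LTB (-2.55, adjusted p = 0.000893), both named after their values were seen.

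Some of these targets rose with both siRNAs at 48 h. ICAM1, the adhesion molecule for leukocytes, went from 16.2 ± 0.159 normalised counts to 326 ± 17.3 with siGGGGGC and 776 ± 85.0 with siGGCAGU (log2 fold changes 4.33 and 5.57, adjusted p = 3.25e-11 and 3.64e-12). SAA1, an acute phase gene, went from 29.3 ± 3.42 to 626 ± 155 and 370 ± 51.4 (4.42 and 3.67, adjusted p = 5.53e-10 and 3.98e-09). Reads of SAA1 may be shared with its near-identical copy SAA2. PTX3, a secreted pattern recognition protein, rose by 3.11 and 2.63 (adjusted p = 1.91e-11 and 7.02e-11) and IER3 by 3.00 and 2.41 (adjusted p = 1.38e-10 and 1.03e-09). In the list of 12 other feedback inhibitors 2 rose with siGGGGGC at 48 h and 3 with siGGCAGU. These were 16.7% and 25%, with 0 called lower. Of all genes tested, 10.5% and 10.7% were called higher, and 21.5% and 20.3% either way. TNIP3, whose product binds A20, rose by 2.21 and 3.10 (adjusted p = 3.36e-10 and 9.39e-12).

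Other targets separated the siRNAs. C3, the central complement gene, rose with siGGCAGU to 239 ± 1.58 from 31.8 ± 10.9 normalised counts (2.94, adjusted p = 2.28e-08) and had 19.9 ± 1.21 with siGGGGGC, a difference of -3.58 (adjusted p = 1.41e-08). CSF3, the granulocyte growth factor, rose with siGGCAGU by 2.63 (adjusted p = 5.13e-09) and lay lower with siGGGGGC than with siGGCAGU (-2.11, adjusted p = 5.98e-08). BIRC3 stood the other way, with 2499 ± 33.1 normalised counts with siGGGGGC and 760 ± 16.5 with siGGCAGU (1.72, adjusted p = 8.08e-10), and so did TRAF1, a signalling adaptor (1.32, adjusted p = 2.28e-05). TRAF1 had risen with both, by 3.18 and 1.86 (adjusted p = 9.81e-09 and 6.69e-06). N4BP1, a suppressor of NF-kB signalling, was higher with siGGGGGC by 1.12 (adjusted p = 8.18e-07), a call lost without siGGCAGU replicate 2, and NFKBIE by 1.06 (adjusted p = 2.95e-06), lost at 0.92 without siGGCAGU replicate 2 and at 0.97 without siGGGGGC replicate 2. PLAU, the urokinase gene, moved the same way with both. It fell with siGGCAGU (-1.86, adjusted p = 3.04e-09) and had -0.97 with siGGGGGC at 48 h (adjusted p = 2.59e-06). The latter was -1.13 and called with library totals in place of TMM. The difference of PLAU between the siRNAs was not called, and it was 1.08 without siGGCAGU replicate 2.

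Since AU-rich elements were frequent in the 9 genes, 8 genes of proteins that bind them were examined. HNRNPD fell with siGGCAGU (-1.14, adjusted p = 8.59e-05), but its siNT1 libraries differed (2020 ± 823 normalised counts, SD, n = 2) and without siNT1 replicate 1 of 48 h the value was -0.66 and not called. With siGGGGGC at 48 h it was -1.0 (adjusted p = 0.000265), at the threshold. ELAVL1, which stabilises such messenger RNAs, was higher with siGGGGGC than with siGGCAGU by 1.09 (adjusted p = 7.46e-07), and 0.99 without siGGGGGC replicate 2. Chosen after its values were seen, ZFP36, which promotes their decay and is itself an NF-kB target, rose with siGGGGGC at 48 h by 2.01 (adjusted p = 1.14e-06).

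**Figure D4:**
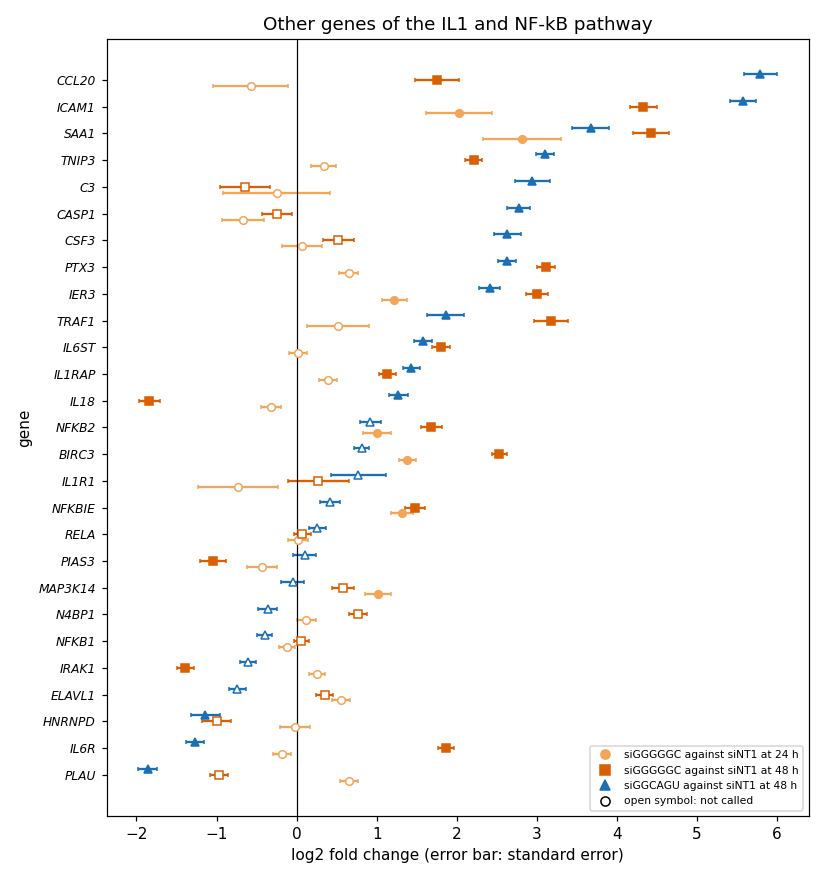
Log2 fold changes against siNT1 (horizontal axis, bars show standard errors) of the named pathway genes (vertical axis, ordered by the siGGCAGU value), with siGGGGGC at 24 h (light circles), siGGGGGC at 48 h (squares) and siGGCAGU at 48 h (triangles), open symbols for genes not called. CCL20 and ICAM1 are highest with siGGCAGU (5.79 and 5.57), and IL18 and IL6R lie on opposite sides of 0 with the siRNAs at 48 h.

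In siNT1 cells themselves, 6 of the 89 pathway genes rose between 24 and 48 h and 0 fell (6.74%, beside 1.53% of all genes tested). Among them were C3 (2.16, adjusted p = 0.00398), SAA1 (2.06, adjusted p = 0.0122), ICAM1 (1.67, adjusted p = 0.0109) and NFKB2 (1.04, adjusted p = 0.00109). The levels of these 4 genes were low at 24 h, with 5.01 to 95.2 normalised counts on average. The count of 6 fell to 2 without either siNT1 replicate of 24 h or without siNT1 replicate 1 of 48 h.

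The likeness of patterns was described with Pearson's r over the 10 libraries, which share their groups and depths. Each of the 9 genes was set against the mean of the other 8 on the log2 CPM scale. IL6 (0.979), CXCL2 (0.964), IL1A (0.939), IL1B (0.937), CXCL3 (0.929), CXCL8 (0.908) and TNFAIP3 (0.893) followed the others, while CXCL1 (0.598) and NFKBIA (0.585) did so less. Of 9972 other genes with a mean of at least 100 normalised counts, the most alike to the mean of the 9 were LACTB (0.995), ATP6V1C1 (0.993), UBE2L6 (0.989), SAMD9L (0.988) and SERPINE2 (0.987). Their own log2 fold changes were between -0.15 and -0.02 with siGGGGGC at 24 h, between 0.28 and 1.38 with siGGGGGC at 48 h and between 0.75 and 2.86 with siGGCAGU.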

How the data were processed

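Total RNA of HeyA8 cells was sequenced as paired-end, ribosomal RNA depleted libraries. The authors trimmed the reads, aligned them to hg38 and used HTSeq to count them per Ensembl gene. The submitters' processing notes name TopHat, Bowtie2, HTSeq and DESeq2. The strand setting of the counting is not given in the sources used here. The deposited files held raw counts per gene for each library, with 0 entries that name no gene. Deposited tables of the authors' own comparisons (fold changes and p-values) were not used. Of the identifiers, 98.9% were given a symbol.

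Counts were filtered with filterByExpr, scaled by TMM and fitted in edgeR 4.0.16 (R 4.3.3) with the 5 groups as a factor, all 10 libraries together, which left 5 residual degrees of freedom. The quasi-likelihood test was adjusted by Benjamini-Hochberg over 16905 genes. SE is the absolute log2 fold change divided by the square root of F. With 2 libraries a group, a permutation test of a single gene cannot reach 0.05 and none was run. Exon lengths and 3′ UTRs were from GENCODE 44, microRNAs and promoters from RefSeq.

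The 9 genes and the pathway lists were chosen with earlier results of these data known. Pathway genes named by rule were IL1R1, IL1RAP, IL1RN, IL6ST, RELA and NFKB1 and, for each comparison of siRNAs, the 5 largest and 5 smallest called log2 fold changes at a mean of at least 100 normalised counts. The genes most alike in pattern were the 5 with the highest Pearson's r to the mean of the 9 genes at that same minimum. The alternatives were another scaling, filter, prior count or test (DESeq2 1.42.0 among them), a replicate block, the compared groups alone and each library left out. Replicates of a group differed beyond counting noise (chi-square per degree of freedom 2.22 to 40.9).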

Additional observations from a re-analysis of the deposited data

Results flagged for a closer look

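The effect of siGGGGGC at 48 h minus that at 24 h was fitted as an interaction, and it was called for 12 of the 27 named pathway genes with a value (edgeR quasi-likelihood test, Benjamini-Hochberg adjustment over all genes), where 11.2% of all genes were called (4.83% higher, 6.36% lower). Most of the 27 were named for a large called fold change, the effects of siGGGGGC among them, so nothing is read from this count. The difference on the log2 scale was 2.66 for TRAF1, 2.46 for PTX3, 2.32 for CCL20, 2.29 for ICAM1, 2.04 for IL6R, 1.87 for TNIP3, 1.78 for IL6ST, 1.78 for IER3 and 1.14 for BIRC3. It was below 0 for IRAK1 (-1.65), PLAU (-1.61) and IL18 (-1.52). The adjusted p-values ran from 9.63e-08 for PTX3 to 0.00725 for ICAM1. The differences of ICAM1 and CCL20 were no longer called when a library was left out, ICAM1 without either siNT1 replicate of 24 h (2.35 and 2.21) and CCL20 without siNT1 replicate 1 of 24 h (1.97).

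For 4 of the 9 inflammatory genes both siGGGGGC libraries lay below both siNT1 libraries at 24 h and above them at 48 h. Of all genes tested, 30.7% were apart and lower at 24 h, and 38.1% were apart and higher at 48 h. The share of all genes with both was not computed. These opposite directions are a description, since the genes were chosen on these counts. The same fit called the difference for all 4, which for that reason is not taken as a test. The effect at 48 h minus that at 24 h was 4.40 for CXCL8, 1.67 for IL6, 1.66 for CXCL2 and 1.57 for CXCL3. At 24 h IL6 rested on 7 to 14 raw counts a library.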

How the results depend on the processing

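Results were recomputed under 20 alternatives, 10 of which left out a library. IL6 and CCL20 at 24 h gave no value with the compared groups alone, and IL1R1 gave none with the filter at a mean count of 50. The 9 genes had 0 called values that changed sign. At 48 h the median of the 9 genes with siGGGGGC was 1.05 with library totals in place of TMM, a scaling that moved the median of all genes to -0.169 in this comparison, to -0.128 with siGGCAGU and to 0.233 between the siNT1 groups. With it IL1B was at 0.89 with siGGGGGC and NFKBIA at 0.91 with siGGCAGU, both no longer called, and in siNT1 cells 10 pathway genes were called and the median of the 9 genes was 0.16. Over all genes it called 165 higher and 409 lower against 262 and 367 with TMM for siGGGGGC at 24 h, 1319 and 2438 against 1768 and 1868 at 48 h, 1402 and 2090 against 1803 and 1627 for siGGCAGU, and 451 and 22 against 180 and 78 between the siNT1 groups. Without the filter on low counts, IL1B was at 0.92 and NFKBIA at 0.98, and the median of all genes in the interaction moved to 0.143. Leaving out a library gave medians of the 9 genes between -0.66 and -0.17 with siGGGGGC at 24 h, and 2 to 8 called pathway genes in siNT1 cells. Values near 0 changed sign. With library totals, IL6ST was at -0.076 and RELA at -0.074 at 24 h, and RELA at -0.091 and NFKB1 at -0.10 with siGGGGGC at 48 h. Without the filter these were -0.048 and -0.056. With a library left out, IL6ST at 24 h ranged from -0.046 to 0.096 and RELA from -0.025 to 0.082, and at 48 h RELA ranged from -0.031 to 0.16, NFKB1 from -0.0094 to 0.12 and IL1R1 from -0.055 to 0.78. The cause was not tested. Replicates with the same number in their titles showed little shared deviation over the genes tested (correlations between -0.0894 and 0.0266). These correlations cannot tell whether such wells were set up together. With the replicate block 9, 31 and 26 pathway genes were called in the comparisons with siNT1, against 9, 31 and 27 without it. The medians of the 9 genes with the block were -0.47, 1.20 and 2.35. Low counts limit the precision for IL6, TNFAIP3, CXCL3 and IL1R1, and for other genes with few counts such as ICAM1, SAA1, C3, CXCR4, PELI2 and LTB.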
